A study of Homo sapiens with 6 samples.

Results

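The genes described here are 9 genes around the Wnt coreceptors: MESDC2 (the deposited table's name for MESD), LRP5, LRP6, CDK14, CDK16, CCNY, FZD2, FZD6 and FZD7. They were found by name, and all 9 are among the 33542 genes of the table. The set was chosen by measured values, because MESDC2 and CDK14 stood among the larger rises in this same comparison and the other genes were added as their known partners. The fold changes of the 9 genes are therefore given as a description, with no p-value, and where a gene lay against the threshold of the fit over all genes is given only as part of that description. RNA was sequenced from T24 cells, a human bladder tumour line, transfected with a lipid reagent carrying either a control small interfering RNA (siNC, 3 libraries) or one against TRAIP (siTRAIP, 3 libraries). TRAIP is an E3 ubiquitin ligase, and the study asked what lies downstream of it in bladder cancer cells. The deposited columns call the siTRAIP libraries siTR2, and whether this marks 1 of several small interfering RNAs is not given in the sources used here. All 6 libraries came from 1 cell line, and the time between transfection and harvest is not given in the sources used here. Separate cultures are not mentioned in the labels, so the p-values describe the spread among these 6 libraries alone, which may be technical.

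Wnt proteins bind a Frizzled receptor and a coreceptor, LRP5 or LRP6, at the cell surface. LRP5 and LRP6 reach the surface only after MESD, a chaperone of the endoplasmic reticulum, has helped their extracellular domains to fold. CDK14, a kinase of the PFTAIRE type, is held at the membrane by cyclin Y (CCNY) and phosphorylates the intracellular tail of LRP6 in mitosis, which prepares the coreceptor for Wnt. CDK16, a kinase of the related PCTAIRE type, is also activated by cyclin Y. Signalling through the coreceptor protects beta-catenin from its destruction complex and lets it act with TCF and LEF factors in the nucleus.

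Libraries held 39111793 to 70439496 counts in genes, with a biological coefficient of variation common to all genes of 5.73%. Within siTRAIP, replicate 3 stood apart, with a chi-square per degree of freedom of 17.4 and 18.0 against the other two libraries, where the remaining pairs within groups gave 3.35 to 7.93. TRAIP itself, in counts-per-million units (CPM) after TMM scaling, had a mean of 27.8 ± 1.04 in siNC and of 12.95 ± 1.61 in siTRAIP (SD, n = 3 each). Of 15 genes listed as epithelial and urothelial markers 14 had values, and 9 of these passed the expression filter, some of them at low levels. KRT7, KRT8 and KRT18 passed it. CDH1, KRT5, UPK1A, UPK3A and TP63 did not. Another of the 9 was VIM, a mesenchymal rather than epithelial gene. Its means were 725.5 and 705.4 CPM in siNC and siTRAIP after TMM scaling. The summed level of these 14 genes, VIM included, was 4273 to 4393 CPM in siNC, and in siTRAIP 3781 to 4159 CPM. The leukocyte markers summed to 34.6 to 37.1 CPM in siNC and 38.02 to 44.8 CPM in siTRAIP, nearly all of it CD68, which shares 85.8% of its exonic bases with other genes, with PTPRC and CD14 below the filter. The 7 fibroblast and muscle markers summed to 5.39 to 5.94 CPM in siNC and to 5.29, 5.79 and 9.95 CPM in siTRAIP, where COL1A1 stood at 0.997, 0.911 and 4.17 CPM, so the high sum is that of siTRAIP replicate 3. The 4 endothelial markers summed to at most 0.204 CPM in any library. Apart from the VIM means, these marker values are scaled by library totals alone. The part of these shifts in the values below was not tested.

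All 9 genes were well covered, with 250 to 13616 counts per gene and library, and all passed the filter on low counts. In the fit over all genes 4 of the 9 were called at an adjusted p of 0.05, 3 higher (MESDC2, CDK14 and CDK16) and 1 lower (CCNY) in siTRAIP. Of all 18685 genes tested 12.8% were called, 7.47% with a rise and 5.34% with a fall. Because this comparison chose the genes, nothing is read from the difference between the 2 shares. The CPM values of the groups did not overlap for 5 of the 9 genes, MESDC2, LRP5, CDK14, CDK16 and CCNY, against 29.1% of all genes tested. The median log2 fold change of the 9 genes was 0.037, beside -0.002 over all genes tested.

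Some 7-base sequence words had been tied to the fold changes in an earlier search of these same data, TCGGAGA and CGGAGAA to rises and ACAGTCT and CAGTCTA to falls. They are shown because CDK14 and MESDC2 differ in them. Fold changes of the genes described here went into that search, so a match is a description and supports nothing. They were looked for on the sense strand, in the coding sequence and 3' UTR of the annotated transcript with the longest coding sequence (GENCODE v29, GRCh38), and overlapping matches were joined. Of 9149 protein-coding genes with a mean of at least 5 CPM, 18.8% held a word of the first pair and 28.3% one of the second. CDK14 held 4 separate sites of the first pair and none of the second. MESDC2 held 1 site of the first pair and 2 of the second. LRP6 held 1 site of the first pair. In the lines that follow the capitals mark the word or joined words and the flanks are in lower case.
CDK14 coding sequence, exon 1, chr7:90596674-90596702, plus strand: tgaagaagttgCGGAGAActttgtcggag
CDK14 coding sequence, exon 1, chr7:90596686-90596714, plus strand: ggagaactttgTCGGAGAgtttcagtcgc
CDK14 3' UTR, exon 15, chr7:91209251-91209280, plus strand: aggcagcttctTCGGAGAAgtgaaatataa
CDK14 3' UTR, exon 15, chr7:91209284-91209312, plus strand: tactcagtggaCGGAGAAatctgttttgt
MESDC2 3' UTR, exon 3, chr15:80978670-80978698, minus strand: tgcaggaaatgCGGAGAAtagaaaatatg
MESDC2 3' UTR, exon 3, chr15:80977149-80977177, minus strand: aggcagaggaaACAGTCTgagctaagacc
MESDC2 3' UTR, exon 3, chr15:80976316-80976344, minus strand: tgagctgagaaACAGTCTgcccagtctgc
LRP6 coding sequence, exon 23, chr12:12121318-12121347, minus strand: tatgctcctagTCGGAGAAtgacctcagtg

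CDK16 held 1 site of each pair, in the coding sequence and in the 3' UTR. CCNY and FZD6 held 1 site of the second pair each, and LRP5, FZD2 and FZD7 held none. The first 2 CDK14 sites lie close together in exon 1, so their windows overlap, and the other 2 lie close together in the 3' UTR. LRP6, with 1 site of the first pair, had nearly the same level in both groups, as given below.

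MESDC2, the coreceptor chaperone gene, lies at chr15:80946289-80989878 on the minus strand (GRCh38, as in all coordinates here). It stood at 111, 115 and 116 CPM in siNC replicates 1 to 3. In siTRAIP replicates 1 to 3 it stood at 214, 214 and 197.5 CPM. Every siTRAIP library was therefore far above every siNC library, with siTRAIP replicate 3 the lowest of its group. The group means were 114 ± 2.95 and 209 ± 9.67 CPM (SD, n = 3 each), which is 1.83-fold. On the log2 scale this was 0.87 (SE 0.04), larger than that of 99.2% of the genes tested, and 0.91 without siTRAIP replicate 3. Other genes share 4.33% of the exonic bases of MESDC2, so reads could be mixed there. They are CEMIP on the opposite strand, with 2.98%, and AC027808.1 on the same strand.

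The coreceptors themselves differed little between the groups. LRP5 lies at chr11:68312609-68449275 on the plus strand and LRP6 at chr12:12116025-12267012 on the minus strand. LRP5 stood at 18.6, 17.95 and 17.5 CPM in siNC and at 17.2, 16.7 and 16.2 CPM in siTRAIP, and its groups did not overlap. The LRP5 log2 fold change was -0.11 (SE 0.06). LRP6 stood at 45.7, 46.6 and 43.7 CPM in siNC and at 46.3, 45.7 and 47.4 CPM in siTRAIP. The LRP6 groups overlapped, and its log2 fold change of 0.04 (SE 0.05) turned to -0.02 when libraries were scaled by their totals alone. Per length and within a library, LRP6 was 1.5 ± 0.0449 times as high as LRP5 in siNC and 1.66 ± 0.0723 times in siTRAIP (SD, n = 3 each). The summed RPKM (CPM divided by gene length in kilobases, with library totals as the scale) of both coreceptors was 7.46 ± 0.180 in siNC and 7.05 ± 0.0166 in siTRAIP. MESDC2 per LRP6, as a ratio of RPKM, was 3.34, 3.40 and 3.67 in siNC and 6.37, 6.45 and 5.73 in siTRAIP. This ratio was higher in all 3 siTRAIP libraries than in any siNC library. MESDC2 per LRP5 was 4.87, 5.26 and 5.46 in siNC and 10.23, 10.54 and 9.99 in siTRAIP, again with the groups apart. MESDC2 was chosen for its rise in this same comparison, so nothing is read from its ratios to LRP5 and LRP6.

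CDK14, the kinase of the mitotic LRP6 step (chr7:90466424-91210590, plus strand), had the lowest mean RPKM of the 9 genes in siNC, with a range that overlapped that of FZD7. Its CPM values were 8.37, 7.86 and 7.91 in siNC and 15.2, 15.03 and 17.3 in siTRAIP. The siTRAIP values were all above the siNC values, and siTRAIP replicate 3, the library that stood apart, was the highest. The means were 8.04 ± 0.284 and 15.8 ± 1.25 CPM (SD, n = 3 each), which is 1.97-fold. On the log2 scale this was 0.98 (SE 0.08), larger than that of 99.5% of genes tested, and 0.91 without siTRAIP replicate 3. Same-strand genes, CLDN12 the named one among them, share 2.94% of its exonic bases. CDK16 (chrX:47217860-47229997, plus strand) stood at 43.4, 42.4 and 42.9 CPM in siNC and at 50.9, 51.8 and 49.4 CPM in siTRAIP. This was a smaller shift than that of CDK14, again with no overlap, and a log2 fold change of 0.24 (SE 0.05). CDK14 made up 15.2% ± 0.309 of the summed RPKM of both kinases in siNC and 22.95% ± 1.80 in siTRAIP (SD, n = 3 each). The share depends on the gene lengths used, which are given with the order of levels below, and the SD does not cover that choice. The summed RPKM of both kinases was 7.91 ± 0.175 in siNC and 9.87 ± 0.143 in siTRAIP. CCNY, the cyclin of both kinases (chr10:35247025-35572669, plus strand), stood at 32.0, 30.7 and 30.7 CPM in siNC and at 26.3, 28.7 and 28.1 CPM in siTRAIP. Its values lay the other way from those of the kinases, at a log2 fold change of -0.17 (SE 0.05). Of the 4 genes past the threshold CCNY was closest to it: it was no longer past it with DESeq2, with no filter on low counts, with the replicate number as a block and on both RPKM scales. The same was so in 5 of the 6 fits with a library left out, the exception being siTRAIP replicate 3, and the log2 fold change of CCNY in these 6 fits ranged from -0.19 to -0.13.

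The 3 Frizzled genes encode seven-pass receptors that bind Wnt through a cysteine-rich domain. FZD6 (chr8:103298433-103332866, plus strand) had the highest mean RPKM of the 9 genes in both groups, at the gene lengths used here. It stood at 159, 150.1 and 142 CPM in siNC and at 147, 138 and 131 CPM in siTRAIP, so that the groups overlapped, and its log2 fold change was -0.12 (SE 0.05). On the deposited RPKM scale the FZD6 groups did not overlap, and with library totals alone its log2 fold change was -0.18. Of the exonic bases of FZD6, 3.39% are shared with the opposite-strand BAALC-AS1. FZD2 (chr17:44557459-44559570, plus strand) stood at 8.61, 7.37 and 8.38 CPM in siNC and at 7.24, 9.08 and 8.41 CPM in siTRAIP, and its log2 fold change of 0.03 (SE 0.09) took either sign when single libraries were left out, from -0.04 to 0.10. FZD7 (chr2:202034587-202038445, plus strand) stood at 6.31, 5.36 and 4.61 CPM in siNC and at 6.58, 5.67 and 6.79 CPM in siTRAIP, with a log2 fold change of 0.23 (SE 0.11) and overlapping groups. Leaving out single libraries moved it between 0.12 and 0.35, the highest without siNC replicate 1 and the lowest without siNC replicate 3. The coefficient of variation of FZD7 was 15.8% in siNC, the highest of the 9 genes there, and 9.37% in siTRAIP. Counting alone would give 5.705% and 5.78% if every count were independent. Counts of FZD1 and FZD3 were even in all 6 libraries, so reads may have been counted in pairs, which was not tested. Counting alone would then give more than the values stated here. FZD2, also low in counts, had 8.15% in siNC and 11.3% in siTRAIP, against 4.65% and 5.09% from counting. LRP5 and CDK16 had 3.215% and 1.25% in siNC, where counting with independent counts would give 3.11% and 2.015%. MESDC2 and FZD6, with many more counts, varied by 4.63% and 5.79% in siTRAIP, where counting gives 0.998% and 1.225%.

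**Figure D1:**
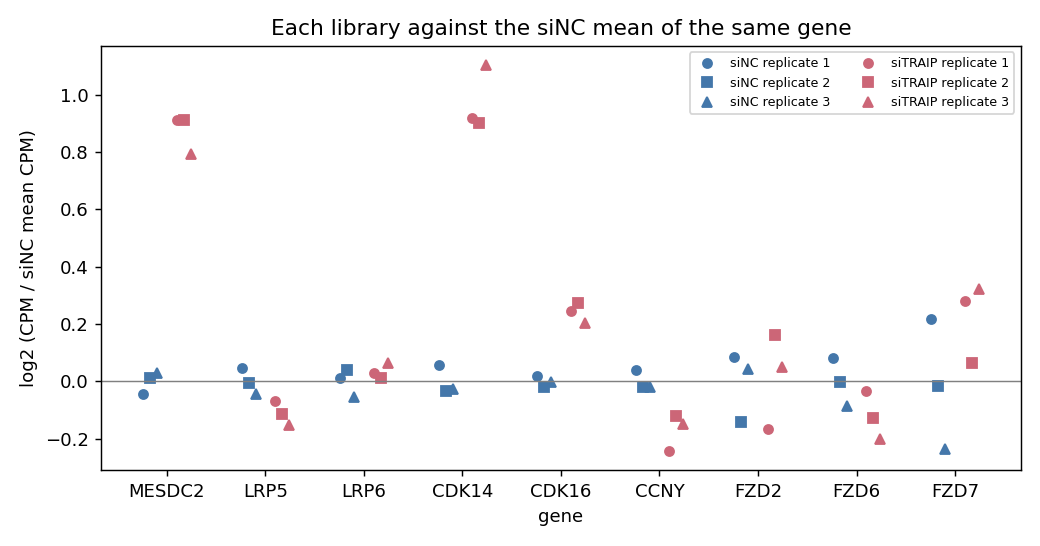
Log2 of each library's CPM over the siNC mean of the same gene, for the 9 genes; colours mark the group and symbols the replicate, and the grey line is the siNC mean. MESDC2 and CDK14 lie far above the line in all 3 siTRAIP libraries, CDK16 lies above it by less, and FZD2, FZD6, FZD7 and LRP6 overlap between groups.

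Levels can be compared between genes only per length, on the RPKM scale. The length here is the deposited one, which for the genes described equals all annotated exonic bases. It can exceed that of the transcript searched for words: 7510 against 4264 bases for MESDC2 and 6841 against 4995 for CDK14. For CDK16 it is 6524 against 3016, and for FZD6 4065 against 3788 bases. FZD7 has 3859 bases by both. With other lengths the order, ratios and shares of genes could differ. In siNC the order from highest to lowest was FZD6 (37.75 ± 2.16 RPKM), MESDC2 (15.5 ± 0.421), CDK16 (6.71 ± 0.133), CCNY (5.53 ± 0.153), LRP6 (4.47 ± 0.113), FZD2 (3.925 ± 0.351), LRP5 (2.98 ± 0.0963), FZD7 (1.435 ± 0.225) and CDK14 (1.2 ± 0.0472; SD, n = 3 each). The ranges over libraries were apart between all neighbours in that order except FZD7 and CDK14. In siTRAIP CDK14 (2.27 ± 0.179 RPKM) stood above FZD7 (1.61 ± 0.142 RPKM), with ranges apart. MESDC2, at 27.2 ± 1.28 RPKM in siTRAIP, was closer to FZD6 at 33.3 ± 1.78 RPKM, where FZD6 was 1.23 times as high, than in siNC, where it was 2.44 times as high. CCNY (4.72 ± 0.246 RPKM) and LRP6 (4.40 ± 0.0781 RPKM) overlapped in siTRAIP. Per FZD7, FZD6 was 23.96, 26.6 and 29.2 times as high in siNC and 21.2, 23.05 and 18.3 times in siTRAIP. FZD6 made up 87.6% ± 0.662 of the summed RPKM of the 3 Frizzled genes in siNC and 85.95% ± 1.41 in siTRAIP.

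**Figure D2:**
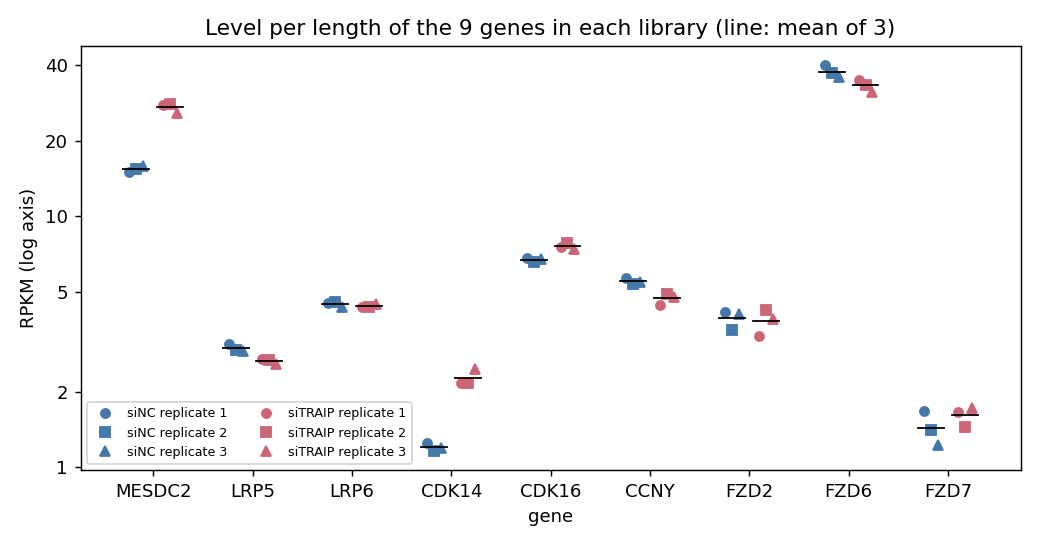
RPKM of the 9 genes in each of the 6 libraries on a log axis, with a line at the mean of each group of 3. FZD6 and MESDC2 stand above the other 7 genes in both groups. CDK14 goes from a mean of 1.2 to 2.27 RPKM, past the mean of FZD7, whose range it overlaps in siNC. The order of genes holds for the gene lengths used.

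Among the 3 genes whose log2 CPM followed MESDC2 most closely over the 6 libraries, out of 9576 other protein-coding genes with a mean of at least 5 CPM, were NOLC1 and MRFAP1L1, each at a Pearson r of 0.999. Their log2 fold changes were 0.94 and 0.19. For CDK14 the 3 genes were USP20 and C9orf78 at r = 0.999 and TLK2 at r = 0.9985, with log2 fold changes of 0.48, 0.55 and 0.53. USP20 and C9orf78 overlap on opposite strands of chromosome 9, so their counts may not be separate. These correlations are over 6 libraries in 2 groups, and a step between the groups is shared by all genes that differ in this comparison.

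The other genes of the pathway were taken from 10 lists of genes that are not among the 9, and these were tested in the fit over all genes. Of 114 tested list genes 5 rose and 13 fell, beside 7.47% and 5.34% of all genes tested. With libraries scaled by their totals alone the counts were 3 and 29, beside 4.485% and 10.97% of all genes. With limma on log2(RPKM + 0.1) they were 1 and 15, beside 2.43% and 5.71% of all genes. The median log2 fold change over the list genes was -0.014.

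Among Wnt ligands and the genes of their secretion, 1 of 8 tested fell and none rose. That gene was WNT5B, a ligand mostly known for signalling without beta-catenin, from 99.2 to 90.1 CPM (log2 fold change -0.14, SE 0.04, edgeR adjusted p = 0.0348). Of 13 other Frizzled and Wnt receptor genes 1 fell, FZD3, at low means of 1.92 and 1.21 CPM in siNC and siTRAIP (log2 fold change -0.64, SE 0.19, edgeR adjusted p = 0.0265). Of 7 tested regulators of ligands and receptors 2 fell, both of the Dickkopf family: DKK1, a secreted inhibitor that binds LRP5 and LRP6 (log2 fold change -0.18, SE 0.05, edgeR adjusted p = 0.0169), and DKK3, a family member (log2 fold change -0.13, SE 0.04, edgeR adjusted p = 0.0362). DKK1 went from 56.1, 59.5 and 58.7 CPM to 49.6, 50.2 and 54.2 CPM, and 9.61% of its exonic bases are shared with the opposite-strand PRKG1-AS1. None of these 4 calls held when each library was left out in turn. The WNT5B call was lost without siNC replicate 1 or 3 or siTRAIP replicate 1 or 2 (edgeR adjusted p = 0.118, 0.136, 0.0959 and 0.059) and with the replicate block (0.0675). The FZD3 call was lost without siNC replicate 1 or 3 or siTRAIP replicate 1 (0.0596, 0.145 and 0.122) and by limma at a pseudocount of 0.1 RPKM (0.138), while DESeq2 gave FZD3 no adjusted p. The DKK1 call was lost without siNC replicate 2 or 3 or siTRAIP replicate 1 or 2 (0.0901, 0.0615, 0.0906 and 0.0774). The DKK3 call was lost on leaving out any library but siTRAIP replicate 3 (edgeR adjusted p from 0.0562 to 0.152) and with the replicate block (0.0753).

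Of 11 other members of the LDL receptor family and their chaperone, 2 fell. LRP8, a receptor for reelin, stood at 84.1, 85.4 and 87.6 CPM in siNC and at 69.55, 62.0 and 68.3 CPM in siTRAIP (log2 fold change -0.36, SE 0.05, edgeR adjusted p = 1.01e-05). Opposite-strand genes share 10.3% of the exonic bases of LRP8. LRP12 had a log2 fold change of -0.23 (edgeR adjusted p = 0.00768, SE 0.06), lost without siNC replicate 2 or siTRAIP replicate 1 (0.064 and 0.0543). LRPAP1, the chaperone of other receptors of this family, had means of 108 and 101 CPM in siNC and siTRAIP and was not called (edgeR adjusted p = 0.164).

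Of 13 genes that phosphorylate LRP6 or build the signalosome, 1 rose and 2 fell. CSNK1G3, a membrane-bound casein kinase 1 gamma that phosphorylates LRP6, stood at 48.9, 49.4 and 44.6 CPM in siNC and at 58.0, 55.7 and 60.6 CPM in siTRAIP (log2 fold change 0.29, SE 0.05, edgeR adjusted p = 3.60e-04). GRK6, a G protein-coupled receptor kinase, had a log2 fold change of -0.21 (edgeR adjusted p = 0.00543, SE 0.05), and opposite-strand genes share 11.4% of its exonic bases, and it has an annotated pseudogene. DVL1, a Dishevelled scaffold, had one of -0.15 (edgeR adjusted p = 0.0441, SE 0.05), a call lost on leaving out any library but siNC replicate 3 (0.0524 to 0.18), with DESeq2 (0.0665), with no filter (0.061) and with the replicate block (0.0633). Of 7 tested genes on a list of further cyclins, kinases and kinase activators around CCNY and the 2 kinases, 2 fell and none rose. CCNYL1, a paralogue of CCNY, stood at 56.2, 52.4 and 55.2 CPM in siNC and at 47.7, 45.65 and 46.4 CPM in siTRAIP (log2 fold change -0.23, SE 0.05, edgeR adjusted p = 0.00176), and AC096772.1 on the opposite strand is among genes that share 13.6% of its exonic bases. CCND3, the cyclin D3 gene, which has 2 annotated pseudogenes, had a log2 fold change of -0.31 (edgeR adjusted p = 0.004, SE 0.07). CDK17, another PCTAIRE kinase, had one of -0.11 (SE 0.07) and was not called.

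Downstream of the receptors no gene of the destruction complex was called among 16 tested by edgeR. At an unadjusted p under 0.05 there were 5, namely AXIN1, GSK3B, CTNNB1, FBXW11 and AMER1, chosen after their values were seen. DESeq2 called 0, while 4 fell with library totals alone, 2 with no filter on low counts and 2 on each RPKM scale. With 1 library left out 0 to 1 fell. PPP2CA, a phosphatase catalytic subunit and the highest of them per length, had a log2 fold change of -0.08 (edgeR adjusted p = 0.229, SE 0.04), and -0.14 and called with library totals alone (adjusted p = 0.0193) and by limma at a pseudocount of 0.1 RPKM (0.0368). CTNNB1, the beta-catenin gene, had means of 111 and 104 CPM in siNC and siTRAIP (edgeR adjusted p = 0.192). Of 15 nuclear partners of beta-catenin 2 rose and 1 fell. TCF7L1, a TCF factor known mostly as a repressor, stood at 3.21, 3.03 and 3.50 CPM in siNC and at 4.98, 5.74 and 4.37 CPM in siTRAIP (log2 fold change 0.62, SE 0.12, edgeR adjusted p = 0.00118), with adjusted p = 0.0519 by limma on log2(RPKM + 0.1). TBL1X had a log2 fold change of 0.20 (edgeR adjusted p = 0.0189, SE 0.06), a call lost with library totals alone (0.102), by limma at a pseudocount of 0.1 RPKM (0.170) and without siNC replicate 2 or 3 or siTRAIP replicate 1 or 2 (0.0569, 0.11, 0.0711 and 0.0803). The corepressor gene TLE1, which has an annotated pseudogene, had one of -0.25 (edgeR adjusted p = 0.00284, SE 0.06).

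Of 16 listed target genes of beta-catenin 10 were tested, and of these 2 fell and none rose. LGR5, NKD1, NKD2 and TDGF1 were below the filter on low counts and were not tested. CCND1, the cyclin D1 gene, stood at 676, 686 and 688 CPM in siNC and at 474, 489 and 521 CPM in siTRAIP (log2 fold change -0.47, SE 0.04, edgeR adjusted p = 5.14e-08), and 10.3% of its exonic bases are shared with the opposite-strand LTO1. FOSL1, an AP-1 factor gene with an annotated pseudogene, had a log2 fold change of -0.22 (edgeR adjusted p = 5.73e-04, SE 0.04). AXIN2, the target most used as a readout of the pathway, was near the limit of detection with means of 0.6275 and 0.678 CPM in siNC and siTRAIP (log2 fold change 0.11, SE 0.27), and was not called. Of 14 folding genes of the endoplasmic reticulum, where MESD works, 2 rose. That count was 5 without siTRAIP replicate 3, the library that stood apart, 1 without siNC replicate 3, siTRAIP replicate 1 or with library totals alone or the replicate block, and 0 without siNC replicate 1 and on both RPKM scales. HSP90B1, the GRP94 gene, had a log2 fold change of 0.18 (edgeR adjusted p = 0.00333, SE 0.04), lost without siNC replicate 1 (0.0556) and by limma at a pseudocount of 0.1 RPKM (0.157). HSPA5, the BiP gene, had one of 0.13 (edgeR adjusted p = 0.0313, SE 0.04), lost without siNC replicate 1, 2 or 3 or siTRAIP replicate 1 (0.178, 0.112, 0.0901 and 0.0601), with the replicate block (0.0717), with library totals alone (0.228) and by limma at that pseudocount (0.3205). These 14 genes ranged from -0.16 to 0.18, beside 0.87 for MESDC2. Because MESDC2 was chosen for its rise in this same comparison, nothing is read from that difference.

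**Figure D3:**
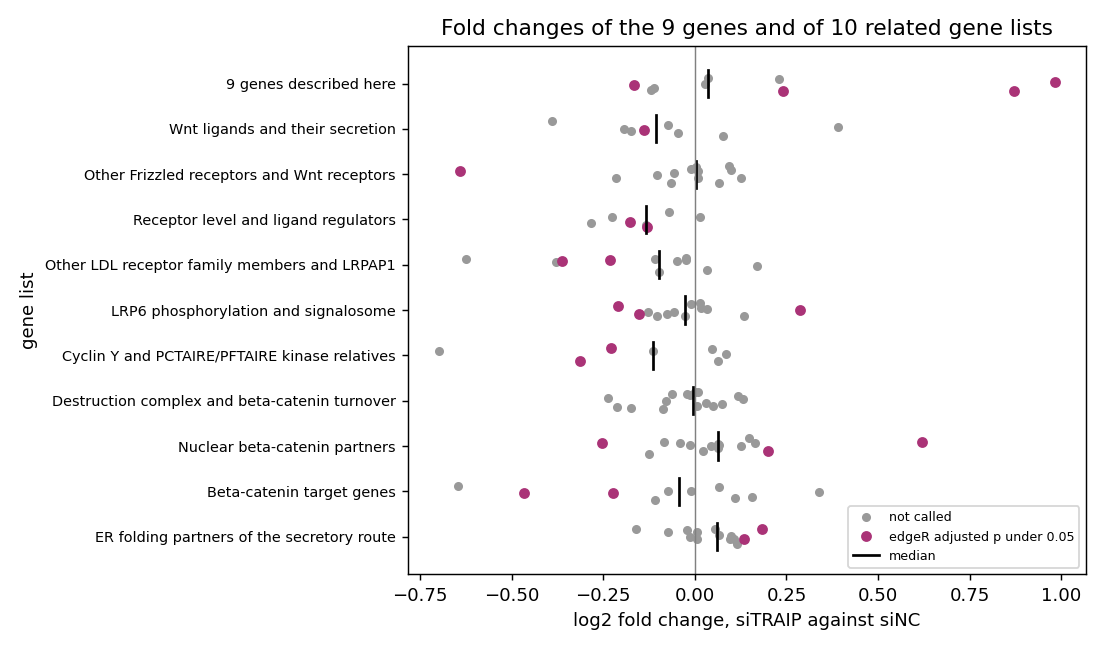
Log2 fold change of siTRAIP against siNC for the 9 genes and for the tested genes of 10 related lists, 1 point per gene; purple points passed an edgeR adjusted p of 0.05 and black lines are medians. MESDC2 and CDK14, chosen for their rises in this comparison, lie at 0.87 and 0.98, and the highest list gene is TCF7L1 at 0.62.

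The words that CDK14 and MESDC2 hold were also looked for in the list genes. As these words came from a search of these same data, the counts are a description and support nothing. Of the 5 that rose, TCF7L1 alone held TCGGAGA or CGGAGAA, and none held ACAGTCT or CAGTCTA. Of the 13 that fell, 5 held ACAGTCT or CAGTCTA: FZD3, LRP8, DVL1, CCNYL1 and TLE1. CCNYL1 also held a word of the first pair. Of the 96 that were not called, 22 held a word of the first pair and 25 one of the second. The shares over expressed protein-coding genes were 18.8% and 28.3%.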

How the data were processed

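RNA of 6 libraries was analysed, 3 per group, grouped by the sample titles. Values as deposited are raw read counts for each gene and RPKM, the latter equal to the count per gene length and library sum within a relative difference of 1.3e-06. Trimmomatic 0.36, Subread 1.5.1 with featureCounts, and build GRCh38 are named in the submitters' processing notes. For the aligner, annotation release and strand setting: not given in the sources used here. Without a known strand setting, reads of overlapping opposite-strand genes cannot be told apart. GENCODE v29 gave exon overlaps and transcript sequences, and 98.4% of the genes matched it by position or name.

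Counts were tested with edgeR 4.0.16 in R 4.3.3: filterByExpr, TMM factors, robust quasi-likelihood fit and F-test, 2-sided, at a threshold of 0.05 after Benjamini-Hochberg adjustment across the 18685 tested genes. CPM use TMM-scaled library sizes. The SE is the log2 fold change divided by the square root of F. The fit was tested on simulated data. Alternatives used DESeq2 1.42.0, limma 3.58.1, other scalings and filters, a replicate block and each library left out. The genes and lists were chosen with earlier results of these data known. Named list genes are up to 4 called per list with the smallest adjusted p, those called against the majority of their list, and the highest per length where none was called. CDK17, LRPAP1, CTNNB1 and AXIN2 were named after their values were seen. A gene close to MESDC2 by correlation and a marker are not reported here.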

Additional observations from a re-analysis of the deposited data

How the results depend on the processing

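MESDC2, CDK14 and CDK16 were past the threshold in all 14 alternatives, but this comparison chose the genes and all alternatives use its libraries, so this supports nothing. With 1 library left out the log2 fold change ranged from 0.85 to 0.91 for MESDC2 and from 0.91 to 1.02 for CDK14. It was 0.81 for MESDC2 with library totals alone. With limma on log2(RPKM + 0.1) it was 0.81 for MESDC2 and 0.86 for CDK14, and on log2(RPKM + 1) 0.77 and 0.57. A pseudocount near the level of CDK14 lowers its fold by construction. Among the 9 genes the count that fell was 2 with library totals alone (CCNY and FZD6), where 10.97% of all genes fell. It was 0 with no filter (3.136% of all genes), DESeq2 (2.501%), the replicate block (4.635%) and both RPKM scales (5.71% each). With 1 library left out it was 0 to 1, beside 3.15% to 6.031% of all genes. The median of all genes was -0.002, and -0.062 with library totals alone.

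Over all genes, 2393 were called, 1396 with a rise and 997 with a fall. With 1 library left out, 1480 to 2622 were called, 878 to 1471 rose and 602 to 1151 fell. Without siNC replicate 1 the counts were 1480, 878 and 602. With library totals alone 838 rose and 2050 fell. With limma on log2(RPKM + 0.1) 1521 were called and 454 rose, and on log2(RPKM + 1) 1517 and 450. Of the list genes 3 rose and 29 fell with library totals alone, 1 rose on each RPKM scale, and with 1 library left out 3 to 9 rose and 8 to 15 fell. Named list genes and TRAIP gave 279 values under the alternatives, of which 226 kept their call or lack of one, 50 no longer passed, 3 newly passed and none changed sign. The cause was not tested.

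Deviations of libraries with the same replicate number correlated at 0.0317, -0.0192 and -0.0162, and the labels do not say that numbers mark pairs. With the replicate block 2145 genes were called, 6.845% of all genes with a rise and 4.635% with a fall. There 3 of the 9 genes were called, and 4 list genes rose and 10 fell.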
